A study of Mus musculus with 12 samples.

Results

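Fam107a and Fam107b are the paralogous mouse genes of the FAM107 family, and their expression was described in quadriceps muscle of exercised and sedentary mice. Both genes were taken through the gene name given for each array probe, which gave 2 genes of the 19647 symbols on the array and 4 probes of its 41174 gene probes. The family was picked because Fam107a had one of the smallest p values between the groups in these same data, so its difference between the groups is given as a description with no test. Fam107b entered as the paralog and was tested with all other genes.

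The exercised group held 6 male C57BL/6J mice aged 13 weeks that had run on a motorized treadmill regularly for 4 weeks. The sedentary group held 6 male C57BL/6J mice of the same age without training. RNA of each mouse was hybridised to its own one-colour array, and the muscle of the exercised mice was taken 3 hours after the final run. An effect of that run and an effect of the 4 weeks cannot be told apart in this design, and the time of day was not given in the labels.

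FAM107 proteins are small proteins with a coiled coil that associate with actin. FAM107A, also known as DRR1 or TU3A, bundles actin filaments and links them to other cytoskeletal partners, and in mouse brain its transcript is known to be induced by stress and by glucocorticoid hormones. FAM107B, also known as HITS, was described in human cell lines as inducible by heat shock. Actin in skeletal muscle forms the thin filaments of the sarcomere, while a separate pool lies beneath the membrane and at the attachment sites of the fibre.

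The array carries 1 probe for Fam107a and 3 for Fam107b, and the first 30 bases of each 60-base probe are shown in lower case because the Fam107b probes gave different results. They are named by gene and by the position in the transcript at which the array annotation places them.

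Fam107a at 2546: gtaaatacagtgaacctgtcttaagtatct
Fam107b at 440: aggaggaagaagctcagaagaagaaatccg
Fam107b at 818: aattcccattcgccaaatgaaagacatcga
Fam107b at 2922: tgctttctaagctataccagttgactttat

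On mouse build mm9 the annotation places the Fam107a probe (A_52_P87900) on the minus strand at chr14:9129330-9129389, within transcript NM_183187. The Fam107b probes lie on the plus strand within transcript NM_025626. The probe at position 440 (A_52_P528456) is at chr2:3695767-3695826, the probe at 818 (A_51_P521084) at chr2:3697077-3697136 and the probe at 2922 (A_52_P557249) at chr2:3699181-3699240. The starts of the Fam107b probes at 818 and 2922 are 2104 bases apart both in the transcript and in the genome, so by these positions no intron lies between them. The starts at 440 and 818 are 378 bases apart in the transcript and 1310 in the genome, which leaves 932 bases that the transcript does not hold.

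The label of the tissue fitted its markers, since 12 of 12 skeletal muscle fibre genes were well above background on 12 arrays. In limma 0 of them passed the test between the groups (3 at an unadjusted p below 0.05). For that threshold no share of all genes was counted. Across the exercised and the sedentary arrays, 22413 to 24856 and 21704 to 25229 probes were well above background (two-sided exact permutation test, p = 0.814). The 75th percentile of the signal, to which each array was scaled, lay between 179 and 230 intensity units on exercised arrays and between 167 and 237 on sedentary arrays (exact permutation test, p = 0.229). There were 3 slides: slide 1 carried 1 exercised and 3 sedentary samples, slide 2 carried 3 exercised samples with 1 sedentary one, and slide 3 carried 2 from each group. The titles number the mice within sets 1 and 2 of unstated meaning, with 2 exercised and 3 sedentary mice in set 1 and 4 and 3 in set 2. Both exercised mice of set 1 were on slide 3.

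Fam107a was several times higher in exercised muscle, on every array. Its level, as a multiple of the array's 75th percentile, was 0.314 and 0.425 in the exercised mice of set 1 and 0.351, 0.346, 0.678 and 0.425 in those of set 2. In sedentary mice the Fam107a level was 0.0882, 0.0803 and 0.0623 in set 1 and 0.0937, 0.0700 and 0.0785 in set 2. The lowest exercised mouse lay above the highest sedentary mouse by 1.74 on the log2 scale, so the groups did not overlap. Over all genes tested, 3.01% had groups that did not overlap, and Fam107a was chosen on this contrast.

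The mean Fam107a level was 0.423 ± 0.133 times the 75th percentile in exercised and 0.0788 ± 0.0115 times in sedentary muscle (SD, n = 6 each). On the log2 scale the means were -1.29 ± 0.40 and -3.68 ± 0.22, a difference of 2.39 with a standard error of 0.171, or 5.23-fold. By p value the gene stood at place 2 among 16523 genes, and by the size of its difference at place 11. Whole muscle was measured, so a change in RNA per cell and a change in the number of cells that express the gene cannot be told apart.

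The spread of Fam107a among exercised mice came mainly from 1 animal. Mouse 4 of set 2 had the highest level at 0.678, while the other exercised mice lay between 0.314 and 0.425. The highest level was 2.16 times the lowest among exercised and 1.503 times among sedentary mice. Without mouse 4 of set 2 the log2 difference was 2.24, the lowest of those with 1 array left out, which reached up to 2.46.

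The Fam107a spot was dim in sedentary muscle. Its background-subtracted signal was 56.3 to 155.9 intensity units on exercised arrays and 10.4 to 18.6 on sedentary arrays, and the scanner software gave an error of 10.1 to 10.47% and of 13.3 to 20.3% of the signal. The spot was well above background on 12 of 12 arrays and saturated on 0. The size of the fold depended on the background correction used. A normexp correction with an offset of 50, with each array's local background limited to its 99th percentile, gave a log2 difference of 0.86 (1.82-fold). The same correction without that limit gave 0.47, in a run that called 0 genes over the whole array. The exercised mean was higher under both forms. The offset exceeds the whole sedentary signal, and this correction also starts from the mean spot intensity and the local background. The part of each in the smaller difference was not tested.

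Fam107a differed to a like extent on each slide. The difference was 2.46 on slide 1, 2.44 on slide 2 and 2.22 on slide 3 (log2, exercised minus sedentary), or 5.51-, 5.42- and 4.65-fold. In sets 1 and 2 it was 2.26 and 2.43. The exercised minus sedentary difference in set 2 minus that in set 1 was 0.17 for Fam107a (95% interval -0.65 to 0.99, limma interaction term, adjusted p = 0.90). This interval leaves room for a difference between the sets of nearly 1 on the log2 scale. The choice of Fam107a by a small p also favoured a small spread within its groups. Likeness between its slides or sets was therefore partly favoured in advance and adds no support.

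**Figure D1:**
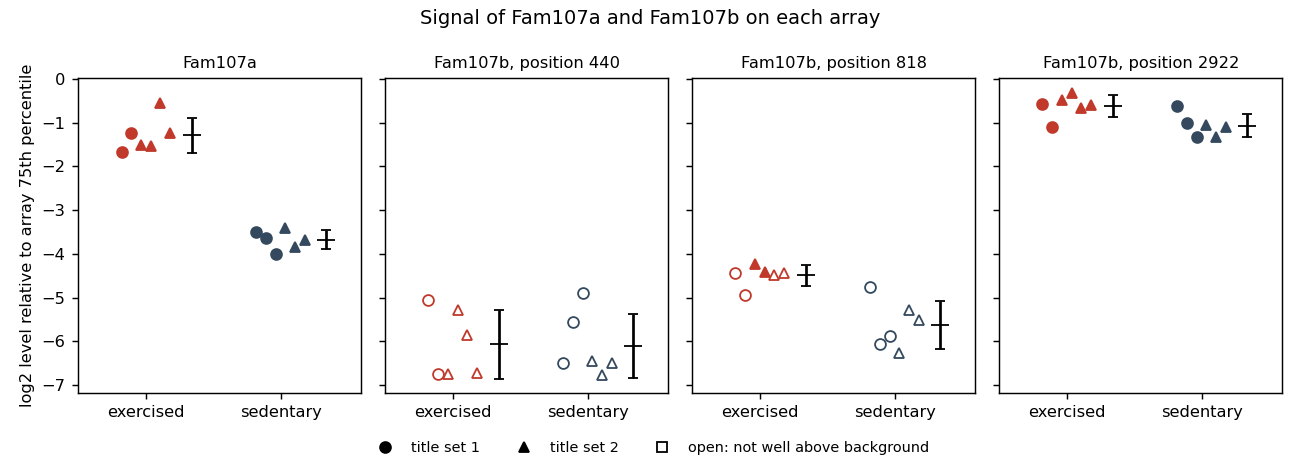
Log2 level of the 4 probes relative to the array's 75th percentile, exercised left and sedentary right, with circles for title set 1, triangles for set 2 and open symbols where the spot was not well above background. Bars give the mean ± SD of 6 arrays. The exercised mice all lie above the sedentary mice for Fam107a (means -1.29 and -3.68), while the groups overlap for each Fam107b probe.

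Fam107b was measured on 12 of 12 arrays only by the probe at position 2922, and there its mean was 1.37 times as high in exercised muscle, a difference that did not pass the test over all genes. Its level was 0.675 and 0.468 times the 75th percentile in the exercised mice of set 1 and 0.715, 0.803, 0.635 and 0.657 in those of set 2. In sedentary mice it was 0.651, 0.498 and 0.396 in set 1 and 0.481, 0.397 and 0.469 in set 2. The groups overlapped through exercised mouse 5 and sedentary mouse 1, both of set 1, while 4 of 6 exercised mice lay above the highest sedentary mouse.

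The mean Fam107b level was 0.659 ± 0.111 in exercised and 0.482 ± 0.0932 in sedentary muscle (SD, n = 6 each). The log2 difference was 0.45, with a 95% interval of 0.14 to 0.76, or 1.37-fold (1.104 to 1.696). In limma the unadjusted p was 0.00766 and the adjusted p over 16523 genes 0.114, and a two-sided exact permutation test of this gene alone gave p = 0.0260. Of all genes tested, 299 rose (1.81%) and 304 fell (1.84%) at an adjusted p below 0.05.

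This result for Fam107b turned on single animals. Without exercised mouse 5 of set 1 the difference was 0.55 and the adjusted p 0.0427. Without sedentary mouse 1 of set 1 they were 0.54 and 0.0434. With any other array left out, it did not pass.

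The difference of Fam107b was smallest on slide 3, which held both of those mice. It was 0.55 on slide 1, 0.52 on slide 2 and 0.14 on slide 3, and it was 0.15 in set 1 and 0.64 in set 2. Set 2 minus set 1 gave 0.49 (95% interval -0.13 to 1.11, adjusted p = 0.613), so the sets could not be shown to differ. Over all genes, 0 differed between sets in limma after adjustment and 1445 did at an unadjusted p below 0.05.

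The Fam107b probe at position 818 was dim. It was well above background on 2 of 6 exercised arrays, both of set 2, and on 0 of 6 sedentary arrays. Its level was 0.0328 to 0.0536 times the 75th percentile, with a median of 0.0461, in exercised mice, and 0.0130 to 0.0370, with a median of 0.0195, in sedentary mice. Of the 6 exercised mice, 5 lay above the highest sedentary mouse, which was again mouse 1 of set 1.

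Because no sedentary array and only 2 exercised arrays measured the Fam107b probe at 818, no fold is given for it. The mean log2 levels as recorded were -4.49 in exercised and -5.62 in sedentary mice. With each sedentary level raised to at least the lowest level well above background on its array, the sedentary mean would be -4.51. In a limma fit over all 41171 probes without a filter its adjusted p was 0.0429, and in the same fit that of the probe at 2922 was 0.258. The fit at 818 compares values mostly at background, so its p cannot show a change in expression. The scanner software gave an error of 18.6 to 33.0% of the signal at 818 on exercised and of 29.0 to 93.9% on sedentary arrays.

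The Fam107b probe at position 440 was well above background on 0 of 12 arrays. Its signal was 0.00928 to 0.0301 times the 75th percentile in exercised and 0.00918 to 0.0339 in sedentary mice. Neither group was well above background on any array, so this probe has no fold. The probes of Fam107b therefore differed in what they could measure, and whether they cover the same transcripts was not tested.

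The variation of the paralogs from mouse to mouse was then compared. The deviations of Fam107a and of Fam107b at 2922 from their group means had a Pearson correlation of 0.05 over 12 arrays, given as a description. It was -0.33 over the 6 exercised and 0.75 over the 6 sedentary arrays. Exercised mouse 4 of set 2, highest for Fam107a, had a Fam107b level of 0.635, below 4 of the other exercised mice.

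**Figure D2:**
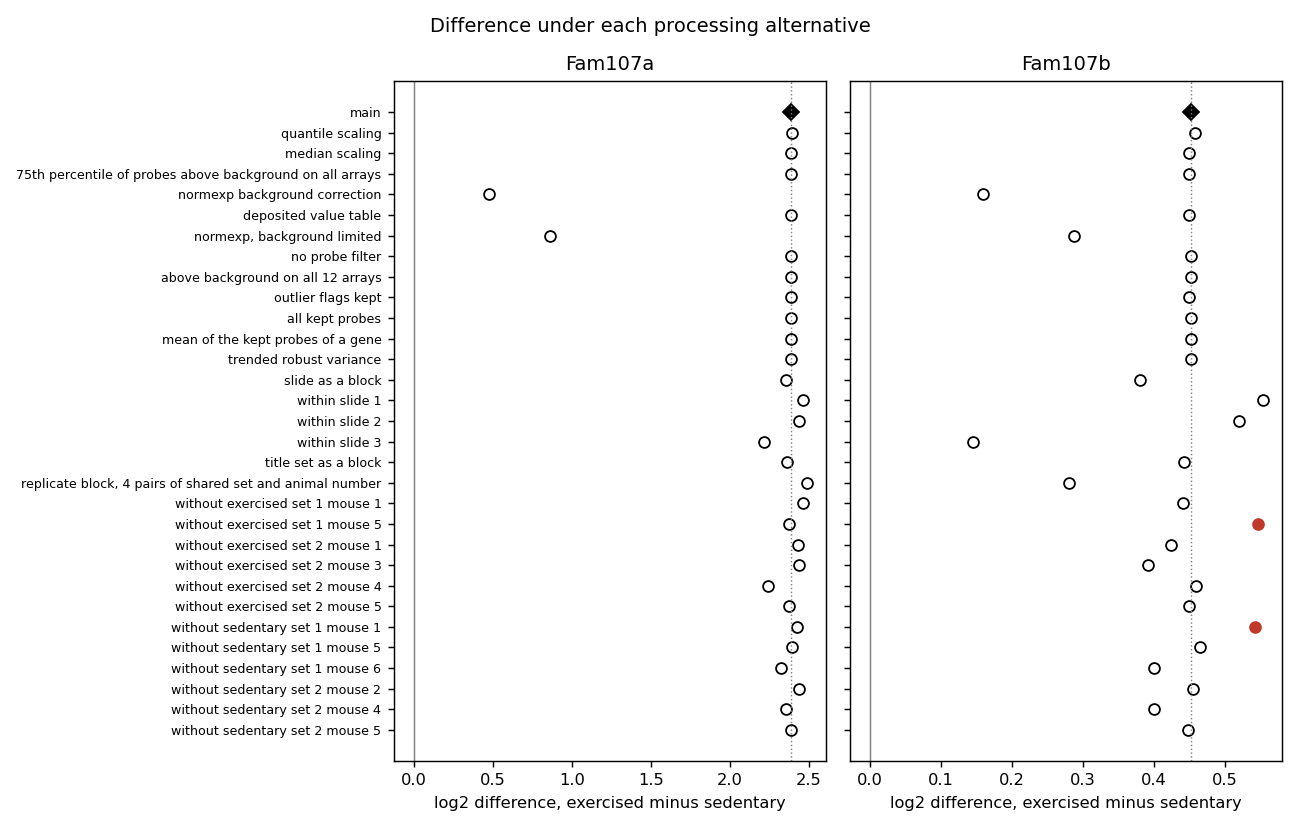
Log2 difference, exercised minus sedentary, of Fam107a (left) and of Fam107b at 2922 (right) under the processing described here (diamond, dotted line) and under each alternative (circles), on axes of different range. Both genes were above 0 throughout, which for Fam107a adds no support, since it was chosen on this contrast. Fam107a was lowest under the normexp corrections (0.47 and 0.86), and Fam107b passed the adjusted threshold in the 2 settings with filled circles.

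The genes most like Fam107a over the 12 arrays were sought by the root mean square distance between log2 levels, each centred on its own mean. This measure favours genes with a like difference between the groups, so the likeness is partly the difference that chose Fam107a. The nearest was Foxo1, a transcription factor of fasting and stress responses, at 0.384, followed by the metallothionein gene Mt2 at 0.422 and the stress-activated kinase gene Map3k6 at 0.501. Cebpd, a transcription factor gene of the C/EBP family, stood at 0.529. Ppargc1a, whose product PGC-1α is a coactivator of mitochondrial genes, stood at 0.530.

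These 5 genes were higher in exercised muscle by 3.53-fold (Foxo1), 4.66-fold (Mt2), 3.50-fold (Map3k6), 3.22-fold (Cebpd) and 3.68-fold (Ppargc1a). None of them had its highest level in exercised mouse 4 of set 2, where Fam107a was highest. Within the 6 exercised mice their correlations with Fam107a ran from -0.87 for Map3k6 to 0.55 for Foxo1.

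The genes with the closest pattern from mouse to mouse within the groups were listed as well. They are the extremes among all genes tested, so their correlations are high by selection. By the correlation of deviations from group means over 12 arrays, the highest were Lrrc57 (0.897), Selenoi (0.896), Oas2 (0.888), Rcor1 (0.881) and Osmr (0.868). Selenoi encodes an ethanolamine phosphotransferase, Oas2 an interferon-induced oligoadenylate synthetase, Rcor1 a corepressor and Osmr the oncostatin M receptor. Their own differences between the groups were small, from -0.17 for Oas2 to 0.07 for Osmr on the log2 scale, and none passed the test. For Fam107b the highest were Rbbp8 (0.914), Mt4 (0.903), Zfp385a (0.877), Pilrb2 (0.856) and Chsy1 (0.830). None of these passed the test between the groups either, and the 2 sets of names did not overlap.

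**Figure D3:**
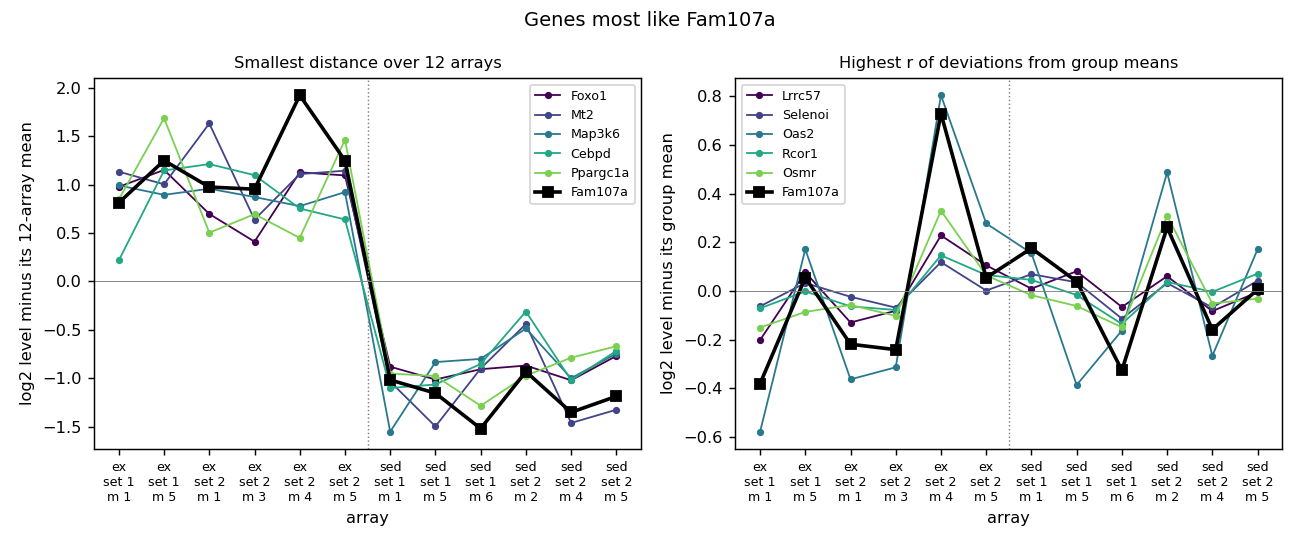
Left, log2 level minus its own mean over 12 arrays for Fam107a (black squares) and the 5 genes at the smallest distance (0.384 to 0.530), exercised arrays left of the dotted line and sedentary right. Right, deviation from the group mean for Fam107a and the 5 genes with the highest correlation (0.868 to 0.897), which were selected for this likeness.

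Glucocorticoid-induced genes, the group to which Fam107a belongs by its known regulation in mouse brain, were mostly higher in exercised muscle. Of 27 tested, 12 rose (44.4%, against 1.81% of all genes) and 0 fell, and 26 of 27 were above 0. The median log2 difference was 0.62, beside -0.03 over all genes. Foxo1 was 3.53-fold higher (limma adjusted p = 2.82e-05), Mt2 4.66-fold (7.09e-05), Cebpb 2.15-fold (0.000229) and Cebpd 3.22-fold (0.000344). Foxo1, Mt2 and Cebpd appear both here and among the nearest patterns. Both selections used the difference between these same groups, so the overlap is no support for a shared regulation. The list was written with earlier results of these data known.

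Heat shock genes, set beside Fam107b for its description in human cells, had 8 of 33 tested members higher (24.2%, against 1.81% of all genes) and 0 lower, with a median of 0.17. The inducible Hsp70 genes Hspa1a and Hspa1b were 8.63- and 9.26-fold higher (adjusted p = 0.00499 and 0.00755). They are near-identical in sequence and their probes may not separate them. The Hsp40 gene Dnaja1 was 2.16-fold higher (0.00799) and the cytosolic Hsp90 gene Hsp90aa1 2.12-fold (0.0213). With slide as a block, 4 members of this list passed, and Hsp90aa1 was no longer among them (adjusted p = 0.0721). The count also fell to 4 without sedentary mouse 2 of set 2, and to 5 without exercised mouse 5 of set 1, exercised mouse 5 of set 2 or sedentary mouse 5 of set 1, each left out alone.

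Genes that act on actin directly were counted next. Of 42 actin-bundling and crosslinking genes tested, the class of Fam107a's protein, 2 rose (4.76%, against 1.81% of all genes). In this list 1 fell (2.38%, against 1.84%), and the median was 0.10. Counts this small in a list of this size are near the background. The calponin genes Cnn1 and Cnn3 were 1.88- and 1.31-fold higher (adjusted p = 0.00546 and 0.0373), and Fscn1, which encodes the bundling protein fascin, was 1.66-fold lower (0.0175). With slide as a block, Cnn1 alone of this list passed; Fscn1 and Cnn3 were at 0.0786 and 0.0858. Cnn1 also stands in the list of smooth muscle and pericyte markers.

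Actin turnover genes, such as those for cofilins and capping proteins, had 0 of 39 past the test in limma (unadjusted p below 0.05 in 9), with a median of -0.03. The smallest p was that of the twinfilin gene Twf2 (log2 difference -0.28, adjusted p = 0.113). With 1.81% of all genes higher and 1.84% lower, a count of 0 in a list of this size is near the background. The share of all genes at an unadjusted p below 0.05 was not counted. Nucleation genes, which start new filaments, had 0 of 36 higher and 1 lower (2.78%, against 1.84% of all genes), also near the background. That gene was Wipf2, for a partner of WASP proteins, 1.30-fold lower (0.0128, and 0.0526 with slide as a block).

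Among 29 actin isoform genes and targets of the actin-sensing SRF pathway, 2 rose (6.9%, against 1.81% of all genes) and 0 fell. They were Ccn2, a secreted matricellular protein gene that is also in the glucocorticoid list (3.03-fold, adjusted p = 0.00583), and Abra, which encodes an actin-binding activator of SRF signalling (1.86-fold, 0.0104). Focal adhesion and costamere genes had 0 of 40 past the test in limma (unadjusted p below 0.05 in 7), with a median of 0.03. With 1.81% of all genes higher and 1.84% lower, this count of 0 is near the background. For the unadjusted count no share of all genes is at hand. The integrin gene Itga1 had the smallest p (log2 difference -0.55, adjusted p = 0.0625).

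**Figure D4:**
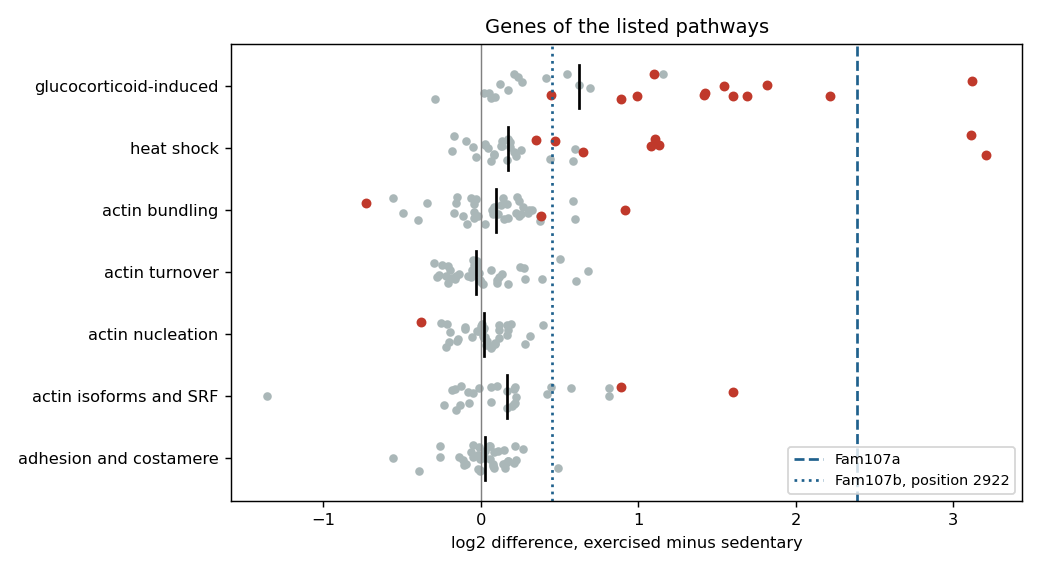
Log2 difference, exercised minus sedentary, of every tested gene in 7 lists, with red points for genes past the adjusted threshold, black bars for list medians, a dashed line at Fam107a (2.39) and a dotted line at Fam107b (0.45). The glucocorticoid-induced list has the highest median (0.62) and the most red points (12 of 27).

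Fam107a is known from astrocytes and neurons, so markers of these cells were read beside it. Of 12 such markers, Gfap, Snap25 and Nefl were above background on 0 arrays, and Slc1a2 and Syt1 on at most 1. Rbfox3 was above background on 6 arrays and Aldoc, Aqp4, Slc1a3, S100b, Gja1 and Tubb3 on 12. Whether the signal of the detected markers came from astrocytes or neurons was not tested. Of the 7 tested, 0 passed in limma and 2 were at an unadjusted p below 0.05, and their mean centred level was -0.09 to 0.19 in exercised and -0.26 to 0.25 in sedentary mice. Schwann cell and nerve markers were above 0 in 8 of 8, with a median log2 difference of 0.22. Of these, 0 passed in limma (unadjusted p below 0.05 in 4), and their mean centred level was -0.19 to 0.43 in exercised and -0.22 to 0.02 in sedentary mice. Tendon markers, 10 in number, were all above 0 with a median log2 difference of 0.92, 0 passed the test in limma while 8 were at an unadjusted p below 0.05, and their mean centred level was -0.33 to 1.23 in exercised and -1.52 to -0.03 in sedentary mice. Among endothelial markers 1 of 12 was called higher (8.33%) and 3 lower (25%), and among those of smooth muscle and pericytes 2 of 12 higher (16.7%) and 1 lower (8.33%), against 1.81% higher and 1.84% lower of all genes. Of 6 lymphocyte markers tested, 1 was called lower (16.7%, against 1.84% of all genes), a share that rests on 1 gene. Of 5 brown adipocyte markers tested, 4 were above 0 and 0 passed in limma (unadjusted p below 0.05 in 2). Their log2 differences ran from -0.10 to 4.35, with a median of 0.18. Their mean centred level was -1.10 to 1.54 in exercised and -1.33 to 0.73 in sedentary mice. Among fibroblast, macrophage, white adipocyte and erythroid markers 0 passed. The part of these cells in the Fam107 values was not tested. Over all genes the median log2 difference was -0.03. The share of all genes at an unadjusted p below 0.05 between the groups was not counted. The unadjusted counts of these markers therefore have no background beside them.

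The start region of Fam107a was read for short motifs because the gene is known as glucocorticoid-induced. Windows of 250 bases before each annotated start came from RefSeq on build GRCm38.p6, and both strands were searched. The hexamer AGAACA, which forms each arm of the glucocorticoid response element, is in 16.1% of 32817 such windows, and 1.81% hold at least 2. Of 3 windows for Fam107a, the upstream one held none. The other two, whose starts are 2 bases apart, each held 2, and they share the stretch shown here with the matches in capitals (TGTTCT is the same hexamer on the opposite strand).

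Fam107a, GRCm38.p6, chr14:8309869-8309952, minus strand: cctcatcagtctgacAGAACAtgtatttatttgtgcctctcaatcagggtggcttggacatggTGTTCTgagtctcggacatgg

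Counted from the more upstream of these starts, the matches of Fam107a lie 158 to 153 and 110 to 105 bases before it. The whole palindromic response element, present in 0.00914% of all windows, was in none of the Fam107a windows. Nor were the cyclic AMP response element TGACGTCA (1.55% of windows), the heat shock element of 3 inverted units (0.466%) and the CArG box bound by SRF (1.47%). The 1 window for Fam107b held none of the 5 motifs. A match of letters is a description of the window, and binding was not measured here.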

How the data were processed

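Spot intensities, linear in scale, came from the deposited scanner output. For 12 of 12 arrays the software named in the headers is Agilent Feature Extraction 10.5.1.1, while the submitters' processing notes name 9.1. The processed intensity deposited by the authors was, per the file headers, background-subtracted within each array, and its 75th percentile differed between arrays. The values they deposited for the whole series (41250 rows) held the same signal, since for 40929 single-spot probes 100% lay within 0.1% of it.

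Here control spots and those marked as outliers were dropped, repeated spots averaged, and each array's 75th percentile subtracted after log2. Of 41174 gene probes, 22916 were kept, being well above background on at least 6 of 12 arrays, among them 2 of the 4 Fam107 probes. The probe with the highest mean level stood for each gene, giving 16523 genes and unnamed probes. Groups were taken from the titles and compared with limma 3.58.1 and Benjamini-Hochberg adjustment at 0.05, run in R 4.3.3. Motifs were searched in RefSeq windows of build GRCm38.p6, on the letters alone. Exact permutation tests ran over 924 assignments, whose smallest two-sided p is 0.00216. The limma fit was tested on simulated data with independent normal noise and added differences between the groups. The other steps were not simulated. The number of arrays limits the precision.

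The named genes are both members, up to 4 called genes with the smallest p of each list (the 1 with the smallest p where none was called), and the 5 most alike by each measure. The members and lists were chosen with earlier results of these data known, and no count of a list is independent support. Alternatives were other scalings, background corrections, filters, probe rules and variance models, the deposited table, slide, title set or shared number as a block, and each array left out.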

Additional observations from a re-analysis of the deposited data

How the results depend on the processing

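Over the 30 alternatives the log2 difference, exercised minus sedentary, stayed above 0 for Fam107a and for Fam107b. Fam107b passed the threshold in 2 of them. Fam107a was chosen on this contrast and its groups did not overlap. Its sign with 1 array left out or within a slide was therefore fixed in advance. Other probe filters, probe rules and the other variance model left both differences at their main values (2.39 and 0.45). This was fixed in advance, since the same probe stood for each gene in those settings. Over them the limma adjusted p of Fam107b ran from 0.0934 to 0.250, and genes called from 316 to 760. With 1 array left out Fam107a ranged from 2.24 to 2.46 and Fam107b from 0.39 to 0.55 (adjusted p 0.0427 to 0.222). Normexp correction gave 0.47 for Fam107a, 0 genes called, and set 2 minus set 1 effects of -0.58 for Fam107a and -0.0068 for Fam107b. On 4 arrays an outlying local background left a lowest net spot signal far below that of the others (-2.82). With the background limited, a choice made after seeing the data, Fam107a was at 0.86 (1.82-fold). Genes called numbered 603 in the main processing, 316 without a probe filter, which tests more probes, 350 with slide as a block, and 0, 8 and 0 within slides 1, 2 and 3, which hold 4 arrays each. With slide as a block, heat shock counts were 4, bundling 1 and nucleation 0, and median scaling also gave nucleation 0; the cause was not tested. The set difference of Fam107a was -0.046 with median scaling and ranged from -0.048 to 0.39 with 1 array left out (negative without exercised mouse 1 of set 1 or mouse 4 of set 2); that of Fam107b ranged from 0.23 to 0.75. Leaving out 1 array gave 419 to 572 called genes, and list counts of 11 to 13 (glucocorticoid), 4 to 9 (heat shock), 2 to 4 (bundling), 0 to 1 (turnover), 1 (nucleation), 2 to 3 (actin isoforms and SRF) and 0 to 1 (focal adhesion). In the 4 pairs of mice that share a set and number, deviations from the group means had correlations of 0.15, -0.19, 0.12 and 0.28. Pairs with different numbers were not compared, so these values cannot show whether the numbers pair the mice. The main processing did not pair them. A fit of those 8 arrays, which are fewer than the 12 of the main processing, with the replicate block gave 29 called genes, 2.49 for Fam107a and 0.28 for Fam107b, and counts of 7 (glucocorticoid), 0 (heat shock), 0 (bundling), 0 (nucleation) and 0 (actin isoforms and SRF). Signal over background limits the Fam107b probes at 440 and 818 and the sedentary level of Fam107a.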
